A study of Mus musculus with 9 samples.

Results

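Genes of the major histocompatibility complex (MHC) and of antigen presentation were described in mouse liver. The set holds every non-control probe of the array whose RefSeq accession leads to a mouse symbol that begins with H2-, or to B2m, Tap1, Tap2, Tapbp, Psmb8, Psmb9, Psmb10, Cd74, Ciita, Nlrc5, Cd1d1 or Ctss. Of 55681 probes on the array, 57 met this rule, and they stood for 46 genes. Among these, 42 probes of 35 genes were bright enough to be tested. In the RefSeq annotation of the assembly GRCm38.p6, 39 of the 46 genes lie on chromosome 17, which carries the mouse MHC.

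Liver RNA of 9 male mice aged 20 weeks was hybridised with Cy3 label to Agilent mouse expression arrays, 1 array a mouse and 3 arrays a group. STAM mice had been given a low dose of streptozotocin, a toxin of insulin-secreting cells, as newborns, and were then fed a high-fat diet. The study's methods give the strain as C57B/6 J. STAM mice model steatohepatitis that goes on to liver cancer in diabetes. STAM-NON mice received no further treatment, and STAM-INS mice received insulin by injection under the skin (insulin glargine in the study's methods, its dose raised by blood glucose). Normal mice were lean and carried neither the toxin nor the diet, so these parts of the model cannot be told apart. The sources used here do not say whether tumour was part of the liver pieces taken.

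MHC class I molecules are built from a heavy chain and beta-2 microglobulin and sit on nearly all nucleated cells. Peptides for them are cut by the proteasome, in inflamed tissue with the inducible subunits Psmb8, Psmb9 and Psmb10. The Tap1-Tap2 pump carries the peptides into the endoplasmic reticulum, where tapasin (Tapbp) holds the empty heavy chain ready. Class II molecules are pairs of an alpha and a beta chain, made above all by dendritic cells, macrophages and B cells. The invariant chain (Cd74) blocks their groove until cathepsin S (Ctss) trims it, and H2-DM then exchanges the remnant for a peptide. Nlrc5 drives transcription of class I genes and Ciita that of class II genes, through a shared promoter module. In a healthy liver, Kupffer cells, dendritic cells and sinusoidal endothelium are the usual carriers of class II.

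The class I list held 32 genes, of which 25 were tested. These were 17 heavy chain genes of the H2-K, H2-D, H2-Q, H2-T and H2-M families with B2m, Tap1, Tap2, Tapbp, Psmb8, Psmb9, Psmb10 and Nlrc5. Among the heavy chain genes, H2-K2, H2-Q5 and H2-T10 are listed as transcribed pseudogenes. The class II list held 12 genes, of which 8 were tested, namely H2-Aa, H2-Ab1, H2-Eb1, H2-DMa, H2-DMb1, H2-Oa, Cd74 and Ctss. Cd1d1, which presents lipids to natural killer T cells, was described alone. H2-Ke6 encodes a dehydrogenase and shares only its name and place with the others, so it was in neither list. Members not tested were H2-M1, H2-M10.1, H2-M10.2, H2-M10.3, H2-M10.4, H2-M10.6 and H2-M5 on the class I side, and Ciita, H2-DMb2, H2-Eb2 and H2-Ob on the class II side. Of the tested probes, 40 of 42 were detected on all 9 arrays. The other 2 were the probe of H2-Oa, on 2 of 3 STAM-INS arrays, and the dimmer probe of Nlrc5, on 2 of 3 Normal arrays.

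The promoters of chain genes are shown because class I and class II genes are known to share a regulatory module upstream of their start, whose X and Y boxes are held by the same set of factors. Upstream windows were taken from RefSeq (GRCm38.p6), which gave a window for 34 of the 46 member genes. The 180 bases before the transcription start of 3 class I genes and 2 class II genes are printed from 5′ to 3′ on the strand of the gene. For H2-K1 the first of the 2 starts in the promoter table was used, which lies inside the annotated gene span (its end is at 34000619), so the H2-K1 window is not upstream of the whole gene. Capitals mark CCAAT or its reverse ATTGG (the core of a Y box), TGACG or its reverse CGTCA (part of an X box) and GGGNNTTCC (a kappa B type letter pattern). In H2-Aa, TGACG and its reverse overlap.
H2-K1, chr17:34000348-34000527, minus strand: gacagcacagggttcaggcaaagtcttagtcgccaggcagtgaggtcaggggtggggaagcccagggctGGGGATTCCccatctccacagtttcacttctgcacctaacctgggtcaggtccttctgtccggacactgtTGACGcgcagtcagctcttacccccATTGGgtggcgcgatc
H2-D1, chr17:35262914-35263093, plus strand: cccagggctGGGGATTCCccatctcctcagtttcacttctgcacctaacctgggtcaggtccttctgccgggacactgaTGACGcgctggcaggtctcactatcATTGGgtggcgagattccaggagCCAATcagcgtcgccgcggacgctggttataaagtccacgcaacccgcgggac
B2m, chr2:122147507-122147686, plus strand: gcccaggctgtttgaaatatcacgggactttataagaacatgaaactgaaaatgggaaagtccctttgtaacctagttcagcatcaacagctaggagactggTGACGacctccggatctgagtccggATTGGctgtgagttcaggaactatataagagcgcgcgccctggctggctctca
H2-Aa, chr17:34287824-34288003, minus strand: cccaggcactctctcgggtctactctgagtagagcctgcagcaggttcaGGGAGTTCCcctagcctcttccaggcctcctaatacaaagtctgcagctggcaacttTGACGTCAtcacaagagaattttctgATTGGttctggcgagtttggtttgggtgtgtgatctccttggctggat
H2-Eb1, chr17:34305687-34305866, plus strand: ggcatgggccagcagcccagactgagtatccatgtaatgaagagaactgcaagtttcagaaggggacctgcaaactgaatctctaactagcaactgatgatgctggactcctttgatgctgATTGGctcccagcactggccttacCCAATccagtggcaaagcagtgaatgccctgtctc

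Letter patterns were counted over the 250 bases before the start, in 1 window a gene. Single patterns were counted on both strands, and the pair of TGACG and ATTGG only in that order on the strand of the gene. CCAAT was found in 15 of 18 windows of class I heavy chains and in 7 of 8 windows of class II chains, against 34.5% of all 27025 promoters. TGACG alone was found in 8 of 18 class I heavy chain windows and in 1 of 8 class II chain windows, against 17.9% of all promoters. TGACG followed by ATTGG after a gap of 15 to 25 bases was found in 6 of the 34 member windows, against 0.226% of all promoters. These were H2-K1, H2-D1, H2-M3, H2-Q7 and B2m of class I and H2-Aa of class II. The gap was 20 bases in H2-K1, H2-D1, H2-M3 and B2m, 19 in H2-Q7 and 21 in H2-Aa. GGGNNTTCC was found in 4 of 18 class I heavy chain windows and 2 of 8 class II chain windows, against 4.88% of all promoters. GAAANNGAA, a pattern known from interferon response elements, was found in B2m, H2-T23 and Ctss, 3 of the 34 windows, against 7.16% of all promoters. A match is a description of the letters and not a measured binding site.

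Each array's log2 signals were shifted so that the 75th percentile of its spots came to 0, and the result is called the centred log2 signal. It ranks arrays for 1 probe, and does not rank probes. The share of spots well above background lay between 46.2% and 65.0% over the arrays. It was 59.3% on STAM-NON 1, 63.1% on STAM-NON 3 and 65.0% on STAM-INS 1, and at most 51.1% on the others. The Normal arrays shared a slide that held no STAM array, so slide and group cannot be told apart in comparisons with Normal. On the STAM slide, the 3 STAM-NON arrays and STAM-INS 1 lay in row 1, and STAM-INS 2 and STAM-INS 3 in row 2. The Normal arrays all lay in row 2 of their slide, so STAM-NON and Normal also differed wholly in row. The 6 hepatocyte markers Alb, Ttr, Apob, Hnf4a, Cps1 and Asgr1 were detected on all 9 arrays, so the tissue label held against the data.

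The first question was how the genes differed between untreated STAM liver and normal liver. In STAM-NON against Normal, 3 members were higher (H2-Q1, H2-M3 and Psmb8) and 2 were lower (H2-M11 and H2-T3), all of them on the class I list. These were 5 of 42 tested probes past a limma adjusted p of 0.05, or 11.9%, against 16.1% of all 26278 probes tested. The background was 6.30% for higher and 9.76% for lower calls. The members were not called more often than other probes. The split depended on the scaling. It was 8 higher and 0 lower with arrays centred on E1A spike-in controls, and 1 higher and 2 lower with arrays centred on their median. Of all 26278 probes, 2685 were higher and 457 lower with E1A centring, and 1086 higher and 2049 lower with median centring. With the slide row as a block, where row and group are separated only through STAM-INS, no member was called. Only 15 of all 26278 probes were called under that block. In whole liver, fewer cells of a type and less RNA per cell cannot be told apart.

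The second question was whether insulin treatment moved the genes within STAM mice. In STAM-INS against STAM-NON, 0 of 42 member probes passed, against 0.0913% of all tested probes. At an unadjusted p under 0.05 in limma, 11 member probes were higher and 1 lower in STAM-INS, all on the class I list. Of all probes tested, 4.56% were higher at that level. The lowest limma adjusted p of a member was 0.473, for H2-Q2. The 9 class II probes had none at an unadjusted p under 0.05. No member was called in this comparison under any of the alternative settings.

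In STAM-INS against Normal, 3 members were higher (H2-Q1, H2-Q5 and Psmb8) and 2 were lower (H2-M11 and H2-T3). These 5 of 42 probes, or 11.9%, stood against 13.9% of all tested probes, with 5.16% called higher and 8.72% called lower. The count again depended on the scaling. It was 13 higher and 1 lower after quantile normalization and 7 higher and 0 lower with a percentile over detected probes alone. With E1A centring it was 4 higher and 0 lower. Of all 26278 probes, 1328 were higher and 1758 lower after quantile normalization. These numbers were 1677 and 1300 with the percentile over detected probes, and 1477 and 706 with E1A centring. Both comparisons with Normal use the same Normal arrays, so their values are given side by side and are not independent.

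**Figure D1:**
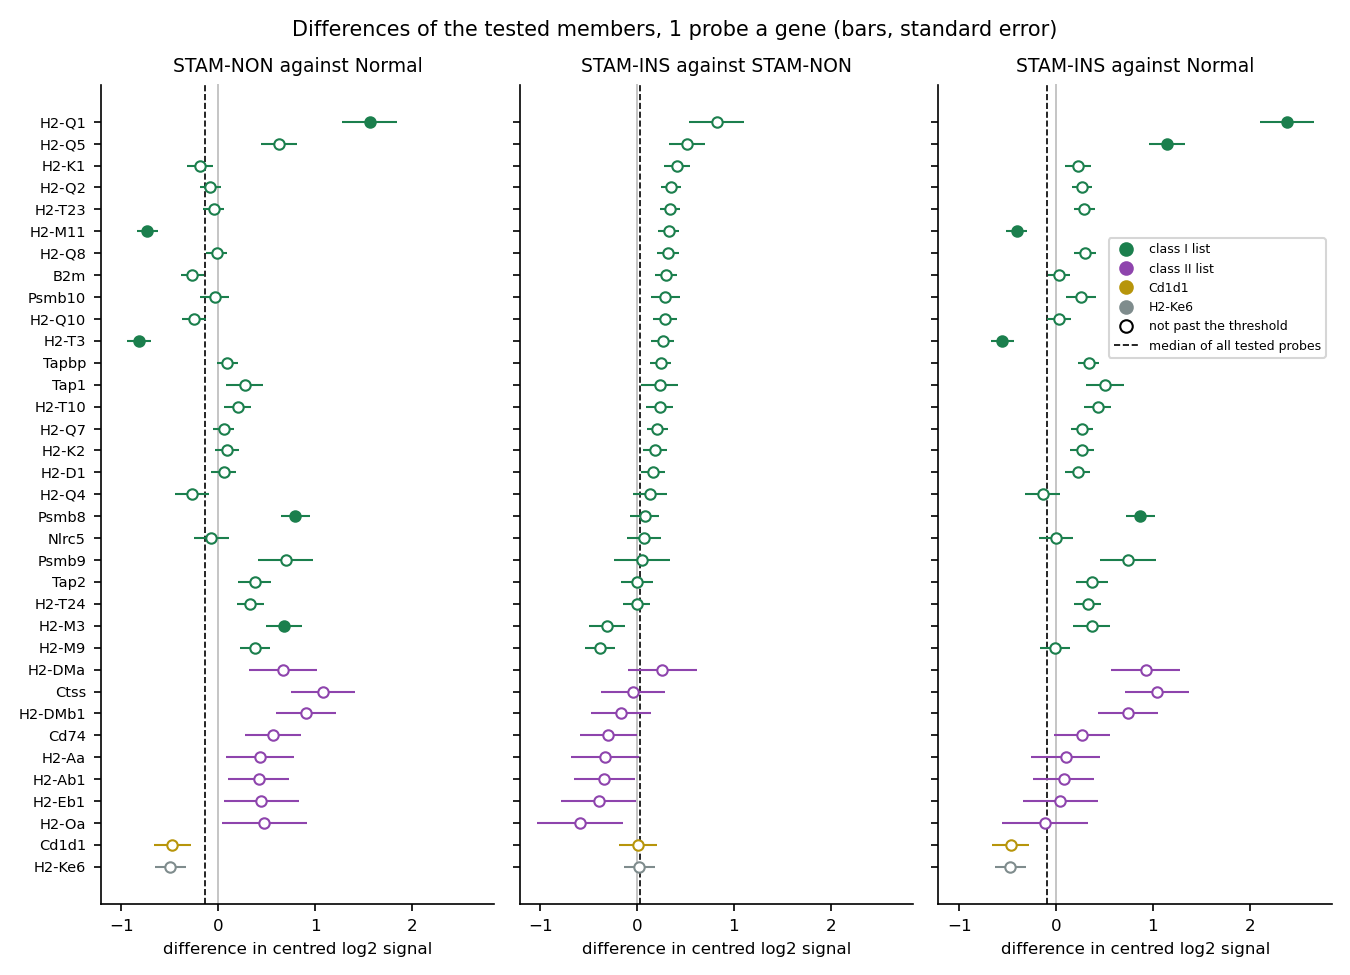
Differences in centred log2 signal for the 35 tested members, 1 probe a gene, in the 3 comparisons. Points are limma estimates with their standard error, filled where the adjusted p was under 0.05, and the dashed line is the median of all tested probes. Class II genes lay to the right of 0 in STAM-NON against Normal and mostly to the left of it in STAM-INS against STAM-NON, where no point is filled.

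H2-Q1 had the largest difference of the tested members in both comparisons with Normal. It belongs to the Q region of nonclassical class I heavy chains, at chr17:35320525-35328142 of GRCm38.p6. Its centred log2 signal was -0.13, 0.11 and 0.03 on the Normal arrays, 1.86, 0.87 and 1.98 on the STAM-NON arrays and 2.27, 2.68 and 2.23 on the STAM-INS arrays. The 3 groups did not overlap, and STAM-NON 2 was the lowest STAM array. STAM-NON was higher than Normal by 1.56 (SE 0.28, limma adjusted p 0.0149), and STAM-INS was higher than Normal by 2.39 (SE 0.28, limma adjusted p 0.00335), or 5.22-fold. STAM-INS and STAM-NON differed by 0.82 (limma adjusted p 0.494). The call against Normal in STAM-INS was kept under all 20 alternatives, and that in STAM-NON under 16 of 20.

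H2-Q5 belongs to the same Q region, at chr17:35394099-35395630, and is listed as a transcribed pseudogene. Its signal was 2.96, 3.03 and 3.0 in Normal, 3.18, 3.89 and 3.82 in STAM-NON and 4.05, 4.28 and 4.11 in STAM-INS. The groups again did not overlap, with STAM-NON 1 close to Normal. The difference to Normal was 1.15 in STAM-INS (SE 0.19, limma adjusted p 0.00883) and passed the test, while that in STAM-NON was 0.63 and missed it (limma adjusted p 0.0517). The latter passed under 7 of 20 alternatives. STAM-INS and STAM-NON differed by 0.52 (limma adjusted p 0.507). Class I heavy chains are close in sequence and the probe sequences were not part of the data used here, so a signal of H2-Q1, H2-Q5 or another Q, K or D gene may hold RNA of its relatives.

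H2-M3 presents N-formylated peptides, which come from bacteria and mitochondria. Its signal was -1.13, -1.0 and -0.97 in Normal, -0.05, -0.80 and -0.20 in STAM-NON and -0.57, -0.66 and -0.76 in STAM-INS. All STAM arrays lay above all Normal arrays, and STAM-NON 2 lay below the STAM-INS arrays while the other STAM-NON arrays lay above them. H2-M3 was higher by 0.68 in STAM-NON (SE 0.19, limma adjusted p 0.0447), a call that was kept under only 5 of 20 alternatives. STAM-INS differed from Normal by 0.37 (limma adjusted p 0.211).

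Psmb8 encodes the inducible proteasome subunit that takes the place of Psmb5. It gave 2.44, 2.95 and 2.66 in Normal, 3.51, 3.56 and 3.36 in STAM-NON and 3.52, 3.69 and 3.46 in STAM-INS. Both STAM groups lay above Normal and overlapped each other. Psmb8 was higher by 0.79 in STAM-NON (limma adjusted p 0.0164) and by 0.87 in STAM-INS (limma adjusted p 0.0108), with an SE of 0.15 each. The STAM-NON call was kept under 15 of 20 alternatives and the STAM-INS call under 17 of 20, and both were lost with arrays centred on their median. Psmb9, which replaces Psmb6, differed from Normal by 0.70 in STAM-NON and 0.75 in STAM-INS and did not pass (limma adjusted p 0.125 and 0.116). Normal 2, at 3.51, overlapped the STAM arrays of Psmb9. Psmb10, the third inducible subunit, differed by -0.04 and 0.26. The constitutive subunits Psmb5, Psmb6 and Psmb7 differed from Normal by -0.14 to -0.33 in STAM-NON, none past the test.

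H2-M11 and H2-T3 were the members that fell. H2-T3 encodes the thymus leukaemia antigen, a nonclassical class I chain best known from the gut epithelium. H2-M11 had signals of 0.62, 0.74 and 0.85 in Normal, -0.06, 0.04 and 0.02 in STAM-NON and 0.25, 0.30 and 0.44 in STAM-INS. H2-T3 had 0.62, 0.80 and 0.94 in Normal, 0.06, 0.05 and -0.19 in STAM-NON and 0.21, 0.25 and 0.24 in STAM-INS. For both genes the groups did not overlap, with STAM-NON lowest and STAM-INS between. H2-M11 fell by 0.74 in STAM-NON (SE 0.11, limma adjusted p 0.0098) and by 0.41 in STAM-INS (limma adjusted p 0.0429). H2-T3 fell by 0.82 in STAM-NON (SE 0.12, limma adjusted p 0.0101) and by 0.55 in STAM-INS (limma adjusted p 0.0243). The STAM-NON calls were kept under 17 of 20 alternatives each, while the STAM-INS call was kept under 5 of 20 for H2-M11 and 10 of 20 for H2-T3. STAM-INS differed from STAM-NON by 0.33 for H2-M11 and 0.26 for H2-T3 (limma adjusted p 0.492 and 0.582).

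**Figure D2:**
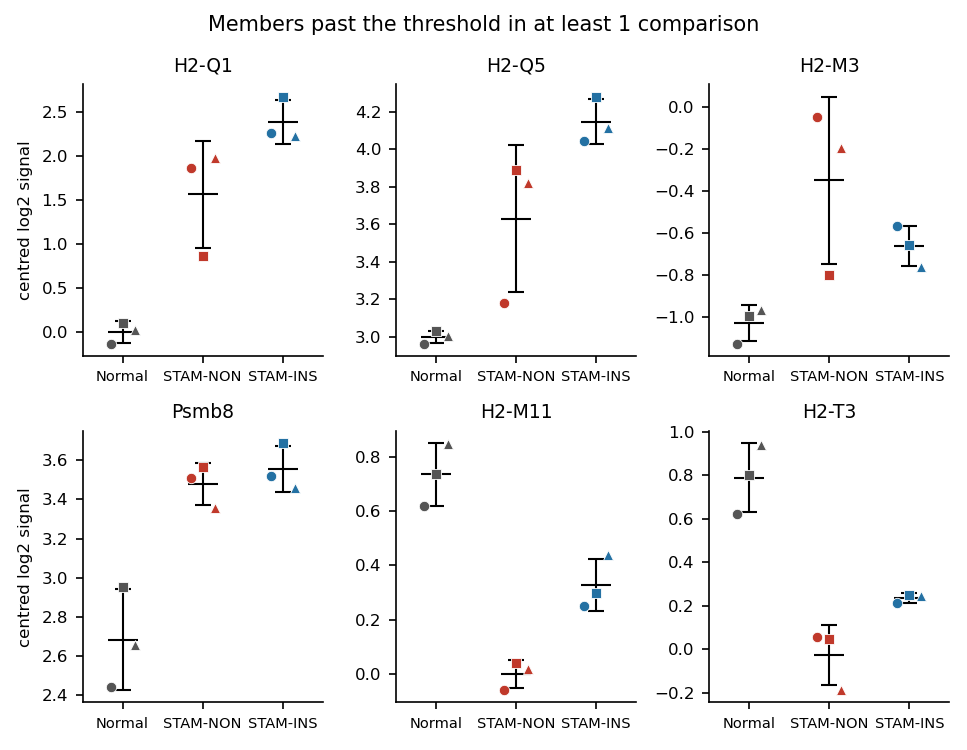
Centred log2 signal of the 6 members past the threshold in at least 1 comparison, by group. Circles, squares and triangles are replicates 1, 2 and 3, and lines with bars are the group mean ± SD (n = 3). H2-Q1 and H2-Q5 were highest in STAM-INS, Psmb8 was high in both STAM groups, and H2-M11 and H2-T3 were lowest in STAM-NON. The vertical axes do not start at 0 and differ between panels.

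The classical class I heavy chains, which present peptides to CD8 T cells, showed small differences. H2-K1 gave 8.21, 8.19 and 8.31 in Normal, 7.79, 8.12 and 8.24 in STAM-NON and 8.35, 8.52 and 8.52 in STAM-INS. All STAM-INS arrays lay above all other arrays, while STAM-NON and Normal overlapped. STAM-NON minus Normal was -0.19. The difference was 0.41 for STAM-INS against STAM-NON (SE 0.14) and 0.22 for STAM-INS against Normal. None passed, with limma adjusted p of 0.336, 0.492 and 0.282. The other probe of H2-K1 differed by -0.13, 0.39 and 0.26.

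H2-D1 gave 6.59, 6.64 and 6.74 in Normal, 6.60, 6.64 and 6.90 in STAM-NON and 6.75, 7.02 and 6.86 in STAM-INS. Its groups overlapped between STAM-NON and each of the others, and no difference passed (0.06, 0.17 and 0.22, limma adjusted p 0.258 or higher). B2m, the light chain that all class I molecules share, gave 8.31, 8.37 and 8.48 in Normal, 7.95, 8.28 and 8.13 in STAM-NON and 8.34, 8.43 and 8.47 in STAM-INS. On this scale every STAM-NON array of B2m lay below every array of the others. STAM-NON minus Normal was -0.27 and STAM-INS minus STAM-NON was 0.30 (limma adjusted p 0.142 and 0.543), so neither passed. STAM-NON minus Normal turned to 0.06 for B2m and 0.10 for H2-K1 after quantile normalization, and to 0.04 for B2m and 0.12 for H2-K1 with E1A centring.

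Among the nonclassical chains, H2-T23 encodes Qa-1, the ligand of an inhibitory receptor of natural killer cells. H2-T23 differed by 0.34 between STAM-INS and STAM-NON, H2-Q8 by 0.32 and H2-Q2 by 0.35, each with an unadjusted limma p between 0.00921 and 0.0205 and an adjusted p of 0.473 or more. H2-Q10, a class I chain secreted by liver cells, differed by 0.29 and 0.26 at its 2 probes. H2-Q7, H2-K2, H2-T10 and H2-Q4 differed by 0.21, 0.18, 0.23 and 0.13. The other tested probes of H2-K2 and H2-Q2 differed by 0.25 and 0.27. Only H2-M3 and H2-M9 lay lower in STAM-INS than in STAM-NON by over 0.1 among class I genes, at -0.31 and -0.39. H2-T24 differed by 0.33 from Normal in both STAM groups and did not pass.

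No gene of peptide transport or class I regulation passed the test. Tap1, a subunit of the peptide pump, gave -0.65, 0.09 and -0.53 in Normal, -0.13, -0.01 and -0.13 in STAM-NON and 0.31, 0.08 and 0.03 in STAM-INS. Normal 2 stood above the other Normal arrays, at the level of the STAM arrays. Tap1 differed from Normal by 0.27 in STAM-NON and 0.50 in STAM-INS (limma adjusted p 0.335 and 0.113). The latter passed only without Normal replicate 2, at 0.73 (limma adjusted p 0.0288). Tap2 differed from Normal by 0.37 in each STAM group, and Tapbp by 0.09 and 0.34, none past the test.

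Nlrc5, the class I transactivator, gave 1.54, 2.10 and 1.87 in Normal, 1.67, 1.83 and 1.80 in STAM-NON and 2.08, 1.85 and 1.59 in STAM-INS. The 3 groups overlapped throughout, and the differences were -0.07, 0.07 and 0.00 for STAM-NON against Normal, STAM-INS against STAM-NON and STAM-INS against Normal. Its dimmer probe differed by 0.10, 0.29 and 0.40, none past the test.

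Over the class I list, 15 of 30 tested probes had every STAM-INS array above every STAM-NON array and 0 had every one below, against 7.24% of all probes tested that lay above. The median difference over the 25 genes was 0.23, beside 0.03 over all tested probes, and 26 of 30 probes had a difference above 0, against 54.9% of all probes. The median stayed above 0 under each scaling, from 0.09 with E1A centring upwards. The count of probes without overlap fell to 5 with E1A centring (2.68% of all probes) and to 3 with arrays centred on their median (3.23%), and it was 13 after quantile normalization. Against Normal, the class I median was 0.06 in STAM-NON, turning to -0.10 with arrays centred on their median, and 0.27 in STAM-INS. The medians over all tested probes were -0.13 and -0.09, and with E1A centring 0.17 and 0.07.

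**Figure D3:**
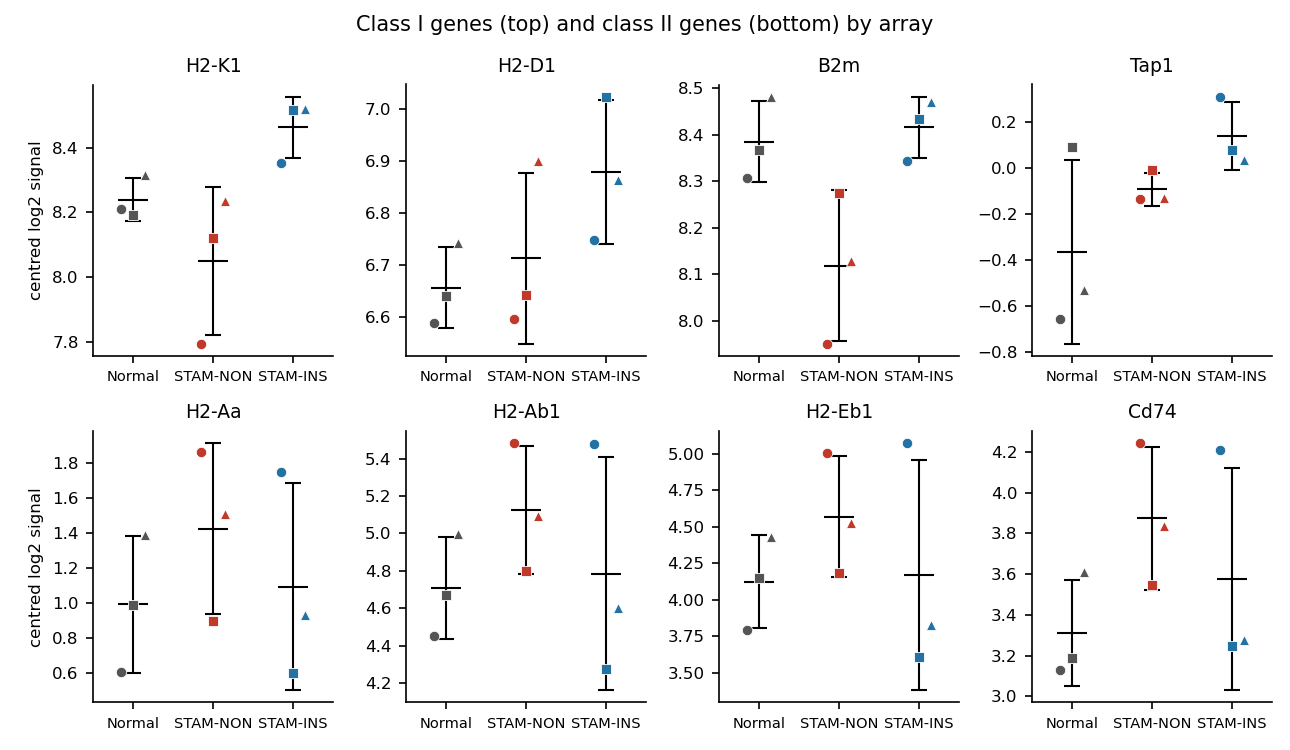
Centred log2 signal of 4 class I genes (top) and 4 class II genes (bottom) by group. Circles, squares and triangles are replicates 1, 2 and 3, and lines with bars are the group mean ± SD (n = 3). STAM-INS was above STAM-NON for H2-K1, B2m and Tap1, while the class II genes were high on replicate 1 of both STAM groups. The vertical axes do not start at 0 and differ between panels.

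The class II chains H2-Aa, H2-Ab1 and H2-Eb1 spread more within each group than the classical class I chains H2-K1 and H2-D1. This did not hold for all class I chains. In STAM-NON the SD was 0.61 for H2-Q1, against 0.34 to 0.49 for these class II chains. H2-Aa, the alpha chain of I-A, gave 0.60, 0.99 and 1.39 in Normal, 1.86, 0.90 and 1.51 in STAM-NON and 1.75, 0.60 and 0.93 in STAM-INS. STAM-NON 1 and STAM-INS 1 were high, and the 3 groups overlapped. H2-Ab1, its beta chain, gave 4.45, 4.67 and 5.0 in Normal, 5.48, 4.80 and 5.09 in STAM-NON and 5.48, 4.28 and 4.60 in STAM-INS. H2-Eb1, the beta chain of I-E, gave 3.79, 4.15 and 4.43 in Normal, 5.0, 4.18 and 4.52 in STAM-NON and 5.07, 3.61 and 3.83 in STAM-INS. These chains had the same high arrays as H2-Aa, and STAM-INS 2 was their lowest array.

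Cd74, the invariant chain, gave 3.13, 3.19 and 3.61 in Normal, 4.24, 3.54 and 3.83 in STAM-NON and 4.21, 3.25 and 3.28 in STAM-INS. It too was high on STAM-NON 1 and STAM-INS 1. The differences of H2-Aa, H2-Ab1, H2-Eb1 and Cd74 were 0.43, 0.42, 0.44 and 0.56 for STAM-NON against Normal, with limma adjusted p from 0.2 to 0.43. For STAM-INS against STAM-NON they were -0.33, -0.34, -0.40 and -0.30, with limma adjusted p from 0.801 to 0.828. None passed, and SEs lay between 0.29 and 0.39. The other probe of H2-Ab1 differed by 0.41 and -0.31.

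No gene of class II peptide loading passed the test. H2-DMb1, which with H2-DMa edits the peptide in the groove, differed from Normal by 0.91 in STAM-NON (limma adjusted p 0.0773) and by 0.74 in STAM-INS (limma adjusted p 0.14). H2-DMa differed by 0.67 and 0.93 (limma adjusted p 0.209 and 0.112). Ctss, the protease that trims the invariant chain, had the largest class II difference, 1.08 in STAM-NON (SE 0.33, limma adjusted p 0.0571) and 1.04 in STAM-INS (limma adjusted p 0.0697). Every STAM array was above every Normal array for H2-DMb1 and Ctss, 2 of the 9 tested class II probes, and neither gene passed. How often this held over all tested probes was not counted for comparisons with Normal, here or for the genes above. H2-Oa, which restrains H2-DM, differed by 0.48 and -0.11 (limma adjusted p 0.459 and 0.884).

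Ciita, the class II transactivator, was too dim to be tested. It was well above background on 1 Normal, 2 STAM-NON and 2 STAM-INS arrays. Its signal was -3.98, 0.42 and -3.80 in Normal, -3.55, -4.13 and -3.45 in STAM-NON and -3.39, -4.41 and -3.15 in STAM-INS. The value of 0.42 on Normal 2 stood alone among the Ciita values, and the class II chains of that array were not raised with it. On the class I list, Normal 2 was the highest Normal array for Tap1, Tap2, Psmb8, Psmb9 and Nlrc5, but not for B2m or H2-K1.

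Over the class II list, all 9 tested probes had a difference above 0 in STAM-NON against Normal, and 36.8% of all probes did. The median over the 8 genes was 0.52, against -0.13 over all probes, and it stayed above 0 under each scaling. In STAM-INS against STAM-NON, 1 of 9 probes was above 0, against 54.9% of all probes, and the median was -0.31, below 0 under each scaling. In STAM-INS against Normal the median was 0.18. These directions rest on few arrays. With the slide row as a block the medians were -0.47, 0.33 and -0.14 in the same order, and without STAM-INS 1 the last of them was also -0.14 (-0.05 without Normal 1). Without STAM-INS 1 the STAM-INS against STAM-NON median was -0.63, and it was -0.10 without STAM-INS 2, -0.19 without STAM-INS 3 and -0.11 without STAM-NON 1.

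To set the lists beside each other on each mouse, a score was taken as the mean over the tested genes of a list of the difference from the Normal mean. The class I score was -0.14, 0.11 and 0.03 in Normal, 0.08, 0.17 and 0.16 in STAM-NON and 0.33, 0.40 and 0.30 in STAM-INS. On this scale all STAM-INS mice were above all others. A shift of a whole array shifts its score, so this order and the spread within groups depend on the scaling. The E1A controls lay 3.71 above the 75th percentile on STAM-NON 1 and 4.04 to 4.13 above it on the STAM-INS arrays. E1A centring would therefore raise STAM-NON 1 against the STAM-INS arrays. The class II score was -0.27, -0.07 and 0.34 in Normal, 0.93, 0.17 and 0.77 in STAM-NON and 0.85, 0.16 and 0.14 in STAM-INS. Here the groups overlapped, and the SD in STAM-NON was 0.40 for class II against 0.05 for class I.

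Centring of whole arrays cancels in the difference of the scores on the same array. Class II minus class I was -0.13, -0.18 and 0.31 in Normal, 0.85, -0.01 and 0.61 in STAM-NON and 0.52, -0.23 and -0.16 in STAM-INS. The high arrays were STAM-NON 1, STAM-NON 3 and STAM-INS 1, which were also the arrays with the largest share of spots above background. The difference of the list medians was 0.46 for STAM-NON against Normal, -0.55 for STAM-INS against STAM-NON and -0.09 for STAM-INS against Normal. No test was run on these lists, since they were chosen with results of these data known.

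**Figure D4:**
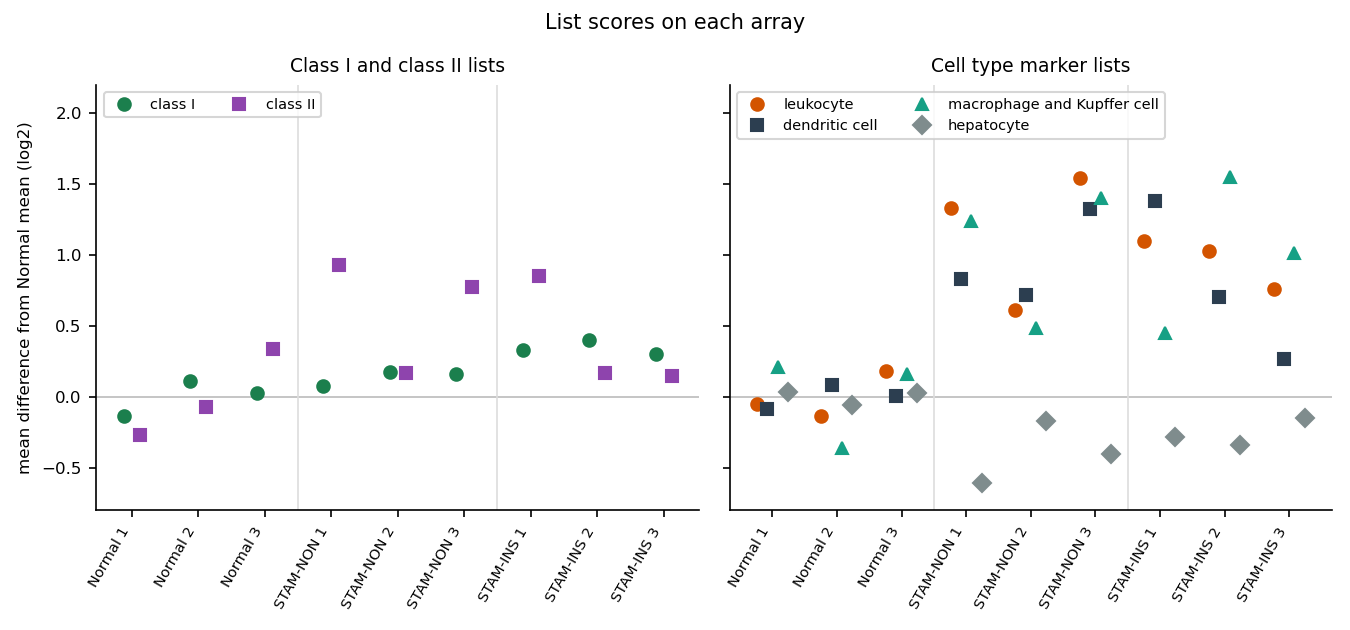
Scores of the class I and class II lists (left) and of 4 cell type marker lists (right) on each array, as the mean log2 difference from the Normal mean over the tested genes. Each point is 1 array. The class I score was highest on the 3 STAM-INS arrays, while the class II score was highest on STAM-NON 1, STAM-INS 1 and STAM-NON 3.

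Some markers of leukocytes, dendritic cells and macrophages were higher in the STAM groups than in Normal. The leukocyte score (Ptprc, Cd52, Coro1a and Laptm5) was -0.13 to 0.18 in Normal, 0.61 to 1.54 in STAM-NON and 0.76 to 1.09 in STAM-INS. In STAM-NON against Normal 4 of 4 of these genes rose (limma adjusted p under the threshold, as in all counts that follow). In STAM-INS against Normal 3 of 4 did. Of all tested probes, 6.30% were called higher and 9.76% lower in STAM-NON, and 5.16% higher and 8.72% lower in STAM-INS. The dendritic cell score was -0.09 to 0.08 in Normal, 0.83, 0.71 and 1.32 in STAM-NON and 1.38, 0.70 and 0.26 in STAM-INS. It was high on STAM-INS 1, as the class II score was, and 2 of its 7 tested genes rose in STAM-NON (Itgax by 1.77 and Batf3 by 0.93). Its markers Flt3 and Clec9a were tested and did not pass, and Xcr1 was too dim to be tested. Cd209a was well above background on 1 of 3 Normal arrays and on all STAM arrays. Flt3 was so on 2 of 3 Normal, 3 of 3 STAM-NON and 1 of 3 STAM-INS arrays. Both entered the score through groups where they were high, so the score rests in part on values at background.

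The macrophage and Kupffer cell score was -0.36 to 0.21 in Normal, 1.24, 0.48 and 1.40 in STAM-NON and 0.45, 1.55 and 1.01 in STAM-INS. Of its 9 tested genes, 3 rose in STAM-NON and 3 in STAM-INS, Cd5l, Clec4f and Mpeg1 in each case. The shares of all tested probes called higher were 6.30% in STAM-NON and 5.16% in STAM-INS. Of the B cell markers, Cd79a, Ms4a1 and Pax5 were too dim to be tested, and 0 of 3 tested genes passed. Of the T and NK cell markers, 1 of 6 rose in each comparison with Normal (Gzma), and of the sinusoidal endothelium markers 1 of 5 rose in STAM-NON (Lyve1). The hepatocyte score was -0.61, -0.17 and -0.41 in STAM-NON and -0.28, -0.34 and -0.15 in STAM-INS, where Cps1 fell in both groups and Asgr1 in STAM-NON. Of the bile duct markers, 2 of 3 rose in STAM-NON (Krt7 and Sox9) and 1 in STAM-INS (Sox9). Krt7 was well above background on 1 of 3 Normal arrays and on all STAM arrays, so it entered the test through the groups where it was high. No gene of these marker lists passed in STAM-INS against STAM-NON, where 0.0913% of all tested probes did. The part of cell numbers in the class I and class II values was not tested.

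Of 15 tested upstream regulators, 1 rose and 1 fell in STAM-NON against Normal, near the 6.30% and 9.76% of all tested probes. These were Irf8, a factor of dendritic cells and macrophages, which rose by 0.96, and Irf2, which fell by 1.20. In STAM-INS against Normal only Irf2 passed, lower by 0.87, where 8.72% of all probes were called lower. Irf1, a factor induced by interferon gamma, differed by 0.39 and 0.45, neither past the test. Ifng itself and Rfx5 were too dim to be tested. The list median was 0.00 in STAM-NON against Normal, beside -0.13 over all probes.

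Of 11 tested genes that process peptides for class I, such as the peptide trimmer Erap1, 0 passed in any comparison, and their median was -0.28 in STAM-NON against Normal. Of 10 tested genes that process antigen for class II, the thiol reductase Ifi30 rose by 1.29 and the protease Lgmn by 1.0 in STAM-NON, with a list median of 0.04. The shares of all tested probes called higher were 6.30% in STAM-NON and 5.16% in STAM-INS, also for the counts below. In STAM-INS against Normal 1 of the 10 passed, Ifi30 at 1.06, just under the threshold (limma adjusted p 0.05 when rounded). Of 5 tested costimulatory and checkpoint genes, Cd86, Cd274 and Cd40 rose in STAM-NON, by 1.46, 1.22 and 1.07, and in STAM-INS, by 1.39, 1.21 and 1.13. Cd40 was well above background on 1 of 3 Normal arrays and on all STAM arrays, so it entered the test through the groups where it was high, and its differences rest on Normal values mostly at background. Cd86 and Cd40 help antigen-presenting cells to activate T cells, and Cd274 encodes PD-L1, which restrains them. In STAM-INS against STAM-NON no tested gene of these regulator, processing and costimulatory lists passed.

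Cd1d1 gave differences of -0.47 and -0.47 for STAM-NON and STAM-INS against Normal at its brighter probe and of -0.47 and -0.37 at the other, with limma adjusted p of 0.118 or more. H2-Ke6 differed by -0.50 and -0.47 (limma adjusted p 0.0649 and 0.0805). Neither gene differed between STAM-INS and STAM-NON by more than 0.11.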

How the data were processed

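Total liver RNA of 9 mice was measured on 1-colour Agilent arrays. The authors deposited scanner output of Feature Extraction 11.5.1.1 (version per the submitters' processing notes), which holds background-subtracted, linear spot intensity values with no normalisation across arrays. Probes were designed on mm9. Accessions, without versions, were named through RefSeq (GRCm38.p6), which named 27656 of 55681 probes. Coordinates are those of GRCm38.p6.

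Outlier spots and control spots were left out and spots of a probe averaged. From the deposited intensity, log2 values minus the 75th percentile of the array were computed. Testing required a share of 0.5 or more of a probe's spots well above background on every array of 1 group or more (26278 probes). Differences were fitted with limma 3.58.1, R 4.3.3 (two-sided, 9 arrays, 6 residual degrees of freedom) with Benjamini-Hochberg adjustment over all tested probes and a threshold of 0.05. The code was tested on simulated data. A gene with several probes is represented by the brightest tested probe. Each member called in a comparison, and 10 fixed chain and regulator genes, are given by array. Members and lists were chosen with earlier results of these data known. Replicates are separate mice, and 3 arrays a group limit the precision. Alternatives covered background correction, scaling, dim probes, blocks and left-out arrays. The normexp alternative used the median spot intensity. The labels and the study's methods name different kits for RNA extraction.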

Additional observations from a re-analysis of the deposited data

How the results depend on the processing

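Calls of members depended on the setting. For STAM-NON against Normal, 5 probes were called. The count was 8 under E1A centring or limma with trend and robust, and 3 under median centring. It was 0 with no filter on dim probes or with the slide row as a block. Leaving out 1 array gave 2 to 7 (2 without Normal replicate 1 or 3). Of all 26278 tested probes, 4220 were called in the main setting. That number was 3142 under E1A centring, 4999 with trend and robust and 3135 under median centring. It was only 250 of 55655 with no filter and 15 of 26278 with the slide row as a block. Without Normal replicate 1 or 3 it was 1154 of 26943 and 940 of 26373. For STAM-INS against Normal, 5 were called. The count was 14 after quantile normalization and 8 after normexp or with only the 2 groups compared. It was 3 under median centring or the slide row block, and 1 with no filter. Leaving out 1 array gave 2 to 6 (2 without STAM-INS replicate 2, and 3 without STAM-INS replicate 1 or 3 or Normal replicate 3). Of all 26278 tested probes, 3647 were called in the main setting, 3086 after quantile normalization and 3742 after normexp. That number was 2912 under median centring and 2157 under the slide row block. It was 572 of 55655 with no filter and 5450 of 25329 with only the 2 groups compared. Without STAM-INS replicate 2 it was 1038 of 27586. For STAM-INS against STAM-NON the count was 0 in all, and 6 to 105 of all tested probes were called. With the replicate number as a block the counts were 4, 0 and 3 for STAM-NON against Normal, STAM-INS against STAM-NON and STAM-INS against Normal. The labels do not say whether the numbers pair the mice. Deviations from the group means correlated with r from -0.29 to 0.15 between same-numbered arrays of different groups. Between differently numbered arrays of different groups, r was -0.19 to 0.28. These values cannot settle whether mice were paired.

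The class I median of STAM-NON against Normal was 0.06, with 0.29 after quantile normalization, 0.22 with the percentile over detected probes, 0.37 under E1A centring and -0.10 under median centring. That of STAM-INS against Normal was 0.27, with 0.49, 0.39, 0.43 and 0.10 in the same order, and that of STAM-INS against STAM-NON was 0.23, with 0.0853 under E1A centring. With the slide row as a block, the class II median of STAM-NON against Normal was -0.47, and that of STAM-INS against STAM-NON was 0.33. Class II minus class I medians under that block were -0.52, 0.10 and -0.45 for STAM-NON against Normal, STAM-INS against STAM-NON and STAM-INS against Normal. With no block, the value of STAM-INS against Normal was -0.09. It was then -0.45 to 0.16 leaving out 1 array, lowest without STAM-INS replicate 1. The cause was not tested. No called member reversed its sign under any alternative. Files gave no mean spot signal, so normexp was run on the median.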
